A study of Mus musculus with 2 samples.

Results

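The mitochondrial genome of the mouse encodes 37 genes, and all 37 were rows of the deposited count table, chosen by a gene symbol that starts with mt-. They are 13 mRNAs, 2 rRNAs and 22 tRNAs among 54532 rows, and they were the rows of chromosome MT without exception. RNA was sequenced from brown fat of the interscapular depot, a tissue that burns fuel for heat, of C57BL/6J mice aged 1 month and labelled male. Both groups carried floxed Rheb alleles (rheb FL/FL), the control without Cre and the rheb BAD KO with a Ucp1-Cre transgene, which deletes in brown adipocytes and leaves Rheb in the other cells of the depot. Each group was 1 library made from the pooled tissue of 3 mice, so no difference below has a replicate check and no p-value was computed. The control library held 21855229 counts and the knockout library 23699316.

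Mitochondrial DNA is a small circle that codes for a few core subunits of the respiratory chain and for the rRNAs and tRNAs that translate them. The remaining subunits are nuclear. Each strand is transcribed as a long precursor, and in most places the tRNAs punctuate the mRNAs and rRNAs and are cut out to release them. Nearly all mRNAs come from one precursor and mt-Nd6 from the other. Mature mitochondrial mRNAs other than mt-Nd6 carry short poly(A) tails, rRNAs have very short ones, and mature tRNAs end in CCA without such a tail. Brown adipocytes are packed with mitochondria, and their heat depends on respiration that the uncoupling protein UCP1 releases from ATP synthesis.

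Rheb, the GTPase that switches on the kinase complex mTORC1, had 1037 control and 568 knockout counts, a ratio of 0.553. Both libraries are labelled male, but Xist, the RNA of the inactive X chromosome, had 7452 control and 4 knockout counts, and the Y-linked Ddx3y had 0 and 1484. The control library therefore went against its sex label, and genotype and sex cannot be told apart in any value below. All 15 brown adipocyte markers passed the filter of a mean of 1 CPM (counts relative to library size, with TMM factors), with 4 higher, 3 lower and 8 in between at the 1.5-fold rule described below, near the 22.9% higher and 22.9% lower over all genes. Of 19 skeletal muscle markers 18 passed and all 18 were lower in the knockout library, where the list took 0.0404% of counts against 0.398% in the control. Of 12 macrophage markers 9 were higher and none lower, beside the same 22.9% each way, at 0.0120% and 0.0202% of counts. Muscle is itself rich in mitochondrial RNA, and the part of muscle or macrophage RNA in the differences below was not tested. In bulk tissue, fewer cells of a type and less RNA per cell cannot be told apart.

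Before the levels are read, their nuclear look-alikes need to be seen. Stretches of mitochondrial DNA inserted in the nuclear genome are annotated as pseudogenes, and reads from identical stretches cannot be assigned to either place by sequence. Alignment of GENCODE transcripts found 16 nuclear genes in the table that share at least 90 bases at 90% identity or more with a mitochondrial gene. Of these, 9 held at least 100 counts in a library. A row of 7 pseudogenes on the minus strand of chromosome 1, from 24611535 to 24616197 (mm10), matches the stretch from mt-Co1 to mt-Nd4. Gm28661 (mt-Co2), Gm10925 (mt-Atp6), Gm28437 (mt-Co3), Gm28439 (mt-Nd4) and Gm10222 (mt-Nd4l) were identical to their gene over 681, 678, 783, 876 and 294 bases. Gm28438 differed from mt-Nd3 at a single base of 345, the substitution T3C counted from the first base of mt-Nd3. The sequences below show that difference, marked by a capital.

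mt-Nd3: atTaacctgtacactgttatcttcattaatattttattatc
Gm28438: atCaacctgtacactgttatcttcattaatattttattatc

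A second insertion, on chromosome 2, is more diverged. Gm13340 differs from mt-Co1 at 37 of 1545 bases, and Gm29216 on chromosome 1 lies on the last 492 bases of the same gene. Bases 1121 to 1180 of mt-Co1 are shown with both copies, since this stretch separates the copies and the counts follow that separation. Capitals mark C1134T, T1179C and G1180A, the substitutions of the chromosome 2 copy counted from the first base of mt-Co1, and the bases at the same places in the other lines.

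mt-Co1: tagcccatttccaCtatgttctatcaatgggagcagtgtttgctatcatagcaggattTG
Gm29216: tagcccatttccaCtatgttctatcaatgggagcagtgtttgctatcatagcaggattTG
Gm13340: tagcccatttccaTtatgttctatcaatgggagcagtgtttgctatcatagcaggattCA

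The chromosome 1 copies that span nearly the whole gene held about as many counts as the mitochondrial genes themselves. For mt-Co2 the control library had 643637 counts on the gene and 639337 on Gm28661, and the knockout library 995209 and 965543. In the 5 pairs where the copy spans nearly the whole gene, the copy held between 95.1% (mt-Nd4l, knockout) and 107% (mt-Atp6, control) of the gene's count. The diverged copies were nearly empty by comparison. Gm13340 had 210 control and 391 knockout counts, against 1120816 and 1865856 on mt-Co1. Gm13341, at 95.9% identity to mt-Co2, had 711 and 971. The 7 chromosome 1 rows together took 11.1% of control and 15.7% of knockout counts. How the counting treated reads with several places is not given in the sources used here, and whether the same reads stand in both rows was not tested. The levels of the 7 genes with such a copy are uncertain to that extent. Only annotated transcripts were aligned, so sequence between the 7 pseudogenes was not examined. The mitochondrial genes that lie between these 7 genes, namely mt-Ts1, mt-Td, mt-Tk, mt-Atp8, mt-Tg and mt-Tr, may share the uncertainty.

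**Figure D1:**
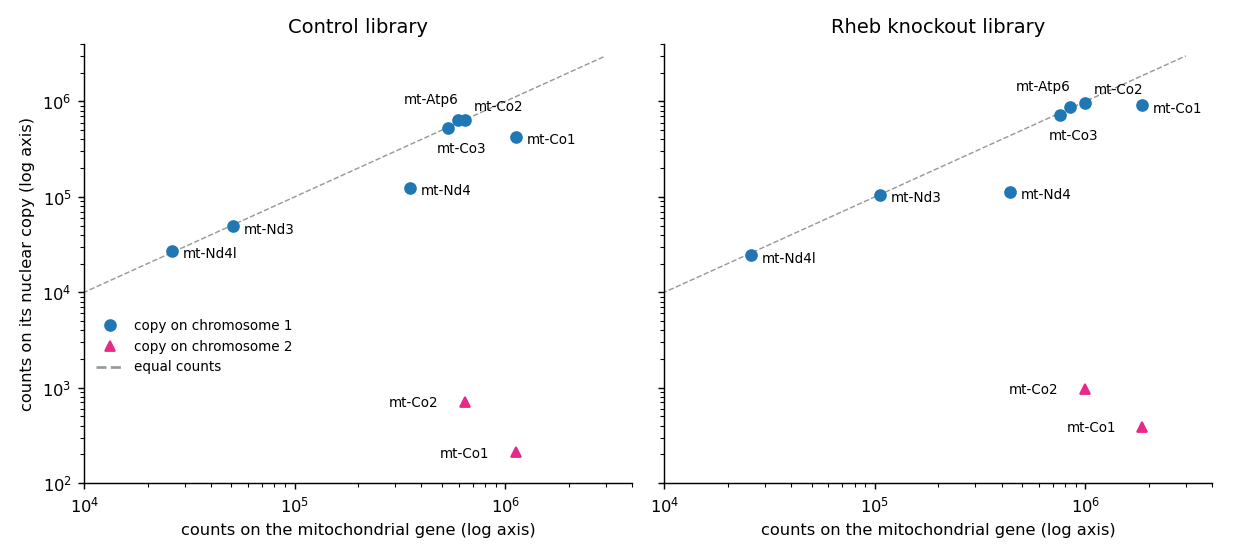
Counts on mitochondrial genes (x axis, log scale) and on their nuclear copies (y axis, log scale) in the control (left) and Rheb knockout (right) library, each point a pair labelled by the mitochondrial gene. The chromosome 1 copies of mt-Co2, mt-Atp6, mt-Co3, mt-Nd3 and mt-Nd4l lie on the line of equal counts, those of mt-Co1 and mt-Nd4, which cover part of the gene, lie under it, and the chromosome 2 copies hold fewer than 1000 counts.

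Mitochondrially encoded RNA took 20.99% of counts in the control library (4587736 counts) and 27.6% in the knockout library (6552386 counts). The summed ratio after scaling was 1.44 (95% exact binomial interval 1.44 to 1.44, covering counting error only). The 13 mRNAs made up 98.1% (control) and 97.8% (knockout) of the mitochondrial counts, with a summed ratio of 1.44. The 2 rRNAs made up 1.72% and 2.12%, with a summed ratio of 1.78 (1.76 to 1.79). The 22 tRNAs made up 0.178% and 0.127%, and their summed ratio was 1.02 (0.994 to 1.06), an interval that includes 1. The sum differed by strand, from 1736 to 2401 counts for the plus strand tRNAs (ratio 1.40, 1.31 to 1.49) and from 6441 to 5895 for those of the minus strand (ratio 0.924, 0.892 to 0.958), of which mt-Tp held most. The library protocol names a purification of mRNA before fragmentation, so these shares are those of the captured RNA and not of the RNA in the cell.

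Per length of gene, the order of the mRNAs was nearly the same in both libraries. In the control library mt-Co2 was highest at 41142 CPM per kilobase, followed by mt-Atp6 at 38178, mt-Co1 at 31718, mt-Co3 at 29804 and mt-Cytb at 20159. Next came mt-Nd1 at 14849, mt-Nd4 at 11186 (knockout 14048), mt-Nd2 at 7927, mt-Nd3 at 6374, mt-Nd6 at 4096, mt-Nd4l at 3839 and mt-Nd5 at 2093. The lowest mRNA, mt-Atp8, had 247 CPM per kilobase (knockout 348), although mt-Atp8 and mt-Atp6 are known to share a single transcript. The genes overlap, at 7766 to 7969 and 7927 to 8607 of chromosome MT, so their counts are uncertain there. The knockout library kept this order except at the neighbours mt-Cytb and mt-Nd1, which changed places (21436 and 24621), and at mt-Nd2 and mt-Nd3 (6566 and 13429). The rRNAs lay near the foot of the mRNA range, mt-Rnr1 at 1501 and 3001 CPM per kilobase and mt-Rnr2 at 1274 and 2063. With 1 library per group, no spread is available to say which neighbours in the order differ.

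**Figure D2:**
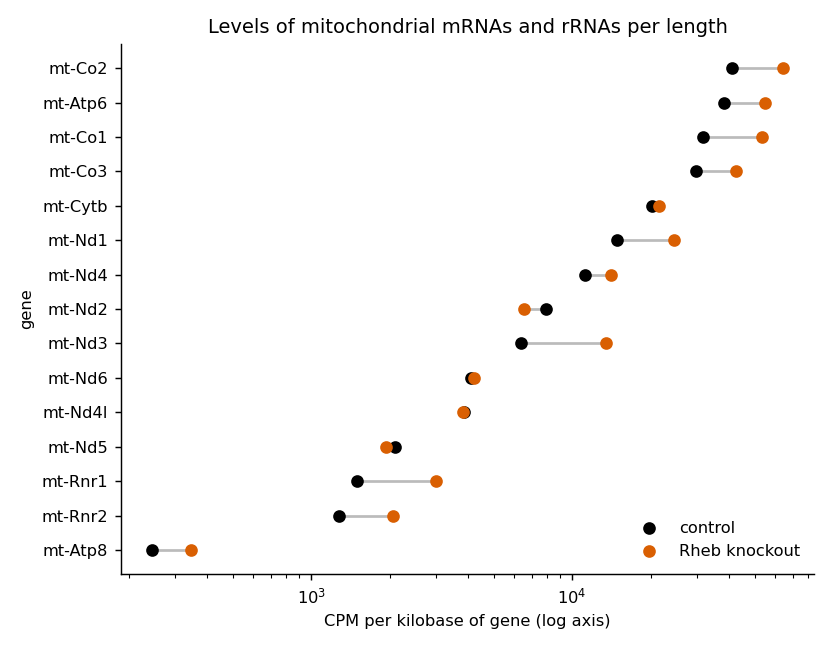
Level of each mitochondrial mRNA and rRNA in CPM per kilobase of gene (x axis, log scale), with the control library in black and the Rheb knockout library in orange, ordered by the control level. mt-Co2 was highest in both libraries (41142 and 64249) and mt-Atp8 lowest (247 and 348), and the longest lines belong to mt-Nd3 and mt-Rnr1.

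A gene was counted as higher or lower where its ratio of scaled counts, knockout over control, passed 1.5-fold and its counting interval excluded 1, and as in between otherwise. Across the 12973 genes that averaged 1 CPM or more, 22.9% were higher and 22.9% lower by this rule, and their log2 ratios had a median of -0.003. Of the 37 mitochondrial genes 28 passed the filter, namely all mRNAs, both rRNAs and 13 tRNAs. Of those 28, 11 were higher, 2 lower and 15 in between, which is 4 of 13 mRNAs, 2 of 2 rRNAs and 5 of 13 tRNAs higher, and 2 tRNAs lower. The filter edge lay between mt-Tt, at 0.882 mean CPM, and mt-Tw, at 2.00. The median log2 ratio was 0.49 for the mRNAs, 0.85 for the rRNAs and 0.37 for the tRNAs that passed. At 2-fold, where 11.1% of all genes were higher and 11.7% lower, 3 mitochondrial genes were higher (mt-Nd3, mt-Tn and mt-Tw) and 1 was lower (mt-Te). At 3-fold, where 3.51% of all genes were higher and 5.12% lower, mt-Tn alone was higher and no member was lower.

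**Figure D3:**
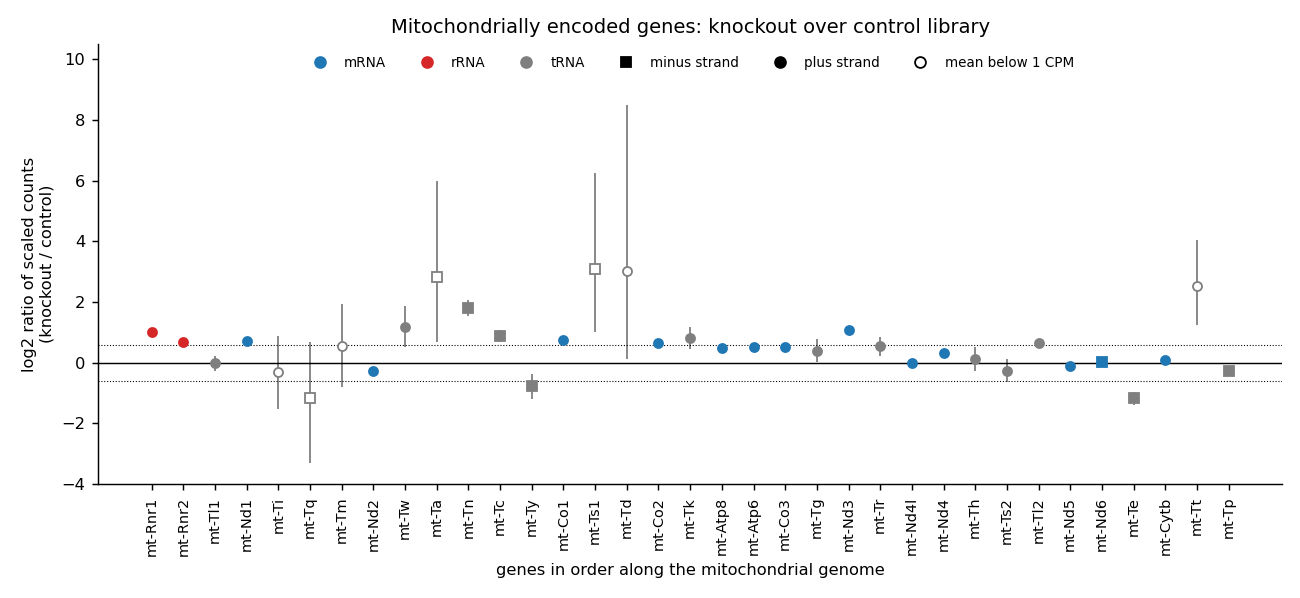
Log2 ratio of scaled counts without pseudocount (y axis, knockout over control) for 35 mitochondrial genes in their order along the genome (x axis), coloured by RNA class, with squares for the minus strand and open symbols for genes with a mean below 1 CPM. Bars are 95% counting intervals, dotted lines mark 1.5-fold, and mt-Tf and mt-Tv, which have at most 1 count in a library, are left out.

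Complex I, which passes electrons from NADH to ubiquinone and pumps protons, has 7 subunits of mitochondrial origin, and their mRNAs went separate ways. mt-Nd3 (9459 to 9806) had 50730 control and 105835 knockout counts, a ratio of 2.11 (2.08 to 2.13), the largest among the mRNAs. mt-Nd1 (2751 to 3707), which helps form the site where ubiquinone binds, had 325026 and 533596, a ratio of 1.66 (1.65 to 1.67). These were the 2 of 7 members of the complex that passed the rule, near the 22.9% of all genes that were higher. mt-Nd2 (3914 to 4951) had 188189 and 154339 counts, and its ratio of 0.828 (0.823 to 0.834) was the lowest of the 13. mt-Nd4 had 352536 and 438388 (ratio 1.26), and mt-Nd4l, which shares its transcript, had 26077 and 25654 (ratio 0.994, 0.977 to 1.01). The longest of these mRNAs, mt-Nd5, had 87329 and 80149 counts (ratio 0.927). mt-Nd6, the mRNA of the minus strand, had 48627 and 49290 (ratio 1.02, 1.01 to 1.04). mt-Nd1 and mt-Nd2 are neighbours on the same precursor, parted by tRNA genes, and stood on opposite sides of 1.

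All 6 subunits of the other complexes had ratios above 1, although scaling to total counts takes mt-Cytb to a log2 ratio of -0.043. In complex IV, cytochrome c oxidase, which hands electrons to oxygen, mt-Co1 (5328 to 6872) had 1120816 and 1865856 counts, the highest count of any mitochondrial gene in both libraries. Its ratio was 1.68 (1.68 to 1.69). mt-Co2 (7013 to 7696), which takes electrons from cytochrome c, had 643637 and 995209 counts, a ratio of 1.56 (1.56 to 1.57). mt-Co3 (8607 to 9390) had 534431 and 755763, a ratio of 1.43 that did not pass 1.5-fold. Which of these passed depends on the scaling. With total counts mt-Co2 had a log2 ratio of 0.51, short of 1.5-fold. With totals that leave out mitochondrial genes and copies mt-Co3 had 0.64, past 1.5-fold. In ATP synthase, mt-Atp6, part of the proton channel, had 594650 and 844257 counts and mt-Atp8 1151 and 1606, with ratios of 1.43 (1.43 to 1.44) and 1.41 (1.31 to 1.52). Neither passed. mt-Cytb (14145 to 15288), the single mitochondrial subunit of complex III, had 527459 and 555331 counts, a ratio of 1.06 (1.06 to 1.07).

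As shares of all mitochondrial mRNA, which do not depend on how the libraries are scaled, mt-Co1 went from 24.9% to 29.1%, mt-Co2 from 14.3% to 15.5% and mt-Nd3 from 1.13% to 1.65%. mt-Cytb went from 11.7% to 8.67%, mt-Nd2 from 4.18% to 2.41%, mt-Nd5 from 1.94% to 1.25% and mt-Nd6 from 1.08% to 0.770%. The shares of mt-Atp6 (13.2% in both) and mt-Co3 (11.9% and 11.8%) were close. The annotated lengths of mt-Co3, mt-Nd4 and mt-Cytb leave 1 base over after division into codons of 3, the usual sign of a stop codon that the poly(A) tail completes.

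The 7 mRNAs with an annotated chromosome 1 copy had a summed ratio of 1.53 (1.53 to 1.53) and 3 of 7 were higher, namely mt-Co1, mt-Co2 and mt-Nd3. The 6 without an annotated one had a summed ratio of 1.18 (1.18 to 1.18) and 1 of 6 was higher, mt-Nd1. Among these 6, mt-Atp8 lies between mt-Co2 and mt-Atp6, whose copies are neighbours on chromosome 1. On chromosome 1 those copies end at 24614651 and start at 24614885. The space between them is as long as the mitochondrial stretch that holds mt-Atp8, between the matched parts of mt-Co2 and mt-Atp6. An unannotated copy of mt-Atp8 may lie there. Its sequence was not examined, so the place of mt-Atp8 among these 6 is uncertain. Over all genes 22.9% were higher, so 1 of 6 is near the background, and the difference between these groups was not tested. Where the copy spans the gene, some ratios of copies and genes were close, such as 1.53 for Gm28661 and 1.56 for mt-Co2, or 2.15 for Gm28438 and 2.11 for mt-Nd3. They were furthest apart for mt-Nd4l, at 0.908 (0.892 to 0.923) for Gm10222 and 0.994 (0.977 to 1.01) for the gene. Adding each copy's counts to its gene left 11 mitochondrial genes higher and 2 lower.

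Where a copy covers part of a gene, its counts describe that part. Gm29216 lies on bases 1054 to 1545 of mt-Co1, the 3′ end, with 6 mismatches in 492 bases, of which 1 falls within the 483 bases from 1063 that blastn aligned. It had 428067 control and 909432 knockout counts, a ratio of 2.15 (2.14 to 2.15). The rest of mt-Co1, taken as the gene's count minus the copy's, had 692749 and 956424, a ratio of 1.39 (1.39 to 1.40). Gm28439 matches bases 1 to 876 of mt-Nd4, the 5′ end, and had 124772 and 112773 counts, a ratio of 0.913 (0.906 to 0.920). The remaining 3′ part of mt-Nd4 had 227764 and 325615, a ratio of 1.44 (1.44 to 1.45). In both genes the 3′ part therefore had the larger ratio, and the parts of mt-Nd4 lay on opposite sides of 1. mt-Nd4l, just upstream of mt-Nd4 on the same transcript, had a ratio near that of the 5′ part, at 0.994. The subtraction assumes that gene and copy took equal counts from the shared stretch. The level of a shared part further assumes that its reads are counted in both rows. These gene parts were chosen after their values were seen. By gene length, the 8 mRNAs under 1000 bases had a median log2 ratio of 0.52 and the 5 of 1000 bases or more one of 0.089, with ranges that overlap (-0.009 to 1.08 and -0.27 to 0.75). Spearman's rho of log2 ratio and length was -0.14 over the 13 mRNAs and -0.22 over the 12 of the plus strand, a description only, since all come from the same 2 libraries.

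**Figure D4:**
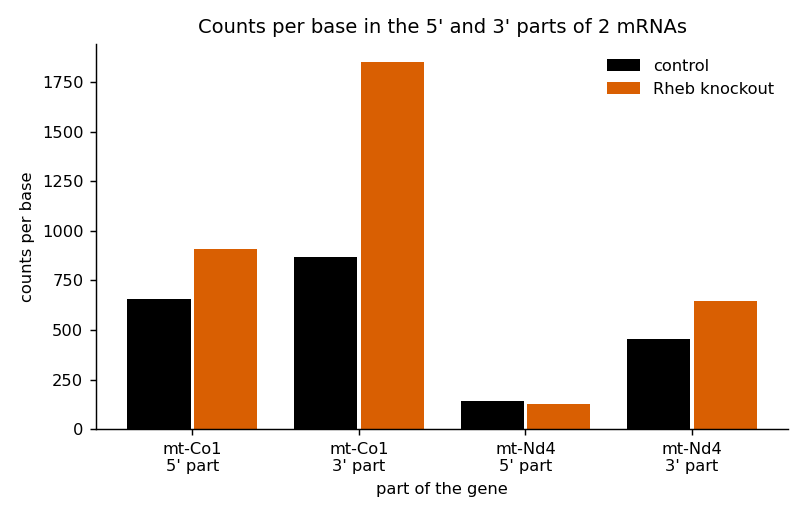
Counts per base (y axis) in the 5′ and 3′ parts of mt-Co1 and mt-Nd4, with the control library in black and the Rheb knockout library in orange. The 3′ part of mt-Co1 went from 870.1 to 1848 counts per base and its 5′ part from 658 to 908, while in mt-Nd4 the 3′ part went from 454 to 649 and the 5′ part from 142 to 129. Levels of the shared parts (3′ in mt-Co1, 5′ in mt-Nd4) assume that shared reads are counted in both rows, which was not tested.

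Both rRNAs of the mitochondrial ribosome were higher, beside 22.9% of all genes. mt-Rnr1 (70 to 1024), the RNA of the small subunit, had 32793 control and 64909 knockout counts, a ratio of 2.00 (1.97 to 2.03). mt-Rnr2 (1094 to 2675), that of the large subunit, had 46108 and 73908, a ratio of 1.62 (1.60 to 1.64). Scaled to total counts, the log2 ratio of mt-Rnr2 was 0.56, short of 1.5-fold. The pair lie side by side at the start of the precursor, parted by mt-Tv. Neither rRNA had a nuclear match of 90% identity in the table.

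The tRNAs were sparse and went both ways. In the control library their counts ran from 0 (mt-Tf and mt-Tv) to 5214 (mt-Tp), and in the knockout library from 0 (mt-Tf) to 4309 (mt-Tp). mt-Tf, the tRNA for phenylalanine, had no count in either library. By counting error alone this allows up to 0.131 CPM (control) and 0.132 CPM (knockout) of the captured RNA, and it sets no limit on the level in the cell. mt-Tv, for valine, had 0 and 1. The 5 tRNAs of the minus strand that passed the filter, which hold calls in both directions, are printed with the anticodon in capitals, as DNA letters of the coding strand from GENCODE release M21. They show how short these genes are beside the mRNAs, and a read that covers one may reach into its neighbours.

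mt-Tn: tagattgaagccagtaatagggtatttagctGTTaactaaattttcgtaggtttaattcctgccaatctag
mt-Tc: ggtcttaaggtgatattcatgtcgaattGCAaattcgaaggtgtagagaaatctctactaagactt
mt-Ty: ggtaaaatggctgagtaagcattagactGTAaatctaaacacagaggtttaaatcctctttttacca
mt-Te: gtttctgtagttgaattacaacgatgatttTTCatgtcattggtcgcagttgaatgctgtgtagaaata
mt-Tp: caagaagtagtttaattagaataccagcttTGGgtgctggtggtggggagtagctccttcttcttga

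mt-Tn, the tRNA for asparagine (5089 to 5159), had 160 control and 556 knockout counts, a ratio of 3.51 (2.94 to 4.21). mt-Tc, for cysteine (5192 to 5257), had 371 and 677, a ratio of 1.84 (1.62 to 2.10). Their neighbour mt-Ty, for tyrosine (5260 to 5326), went the other way, with 130 and 75 counts and a ratio of 0.583 (0.433 to 0.780). All 3 genes stand on the minus strand in a single tRNA cluster between mt-Nd2 and mt-Co1. mt-Tw, for tryptophan, in the same cluster on the plus strand, had 28 and 63 counts, a ratio of 2.27 (1.43 to 3.68). mt-Te, for glutamate (14071 to 14139), which lies between mt-Nd6 and mt-Cytb, had 553 and 243 counts, a ratio of 0.444 (0.380 to 0.517) and the lowest among the members that passed the filter. mt-Tp, for proline (15356 to 15422), next to the control region, had 5214 and 4309 counts, a ratio of 0.835 (0.801 to 0.869), and it held most tRNA counts of both libraries.

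On the plus strand, mt-Tl2, a leucine tRNA, had 785 and 1219 counts (ratio 1.57, 1.43 to 1.72) and mt-Tk, for lysine, 110 and 191 (ratio 1.75, 1.38 to 2.24), and both were higher. Scaled to total counts, mt-Tl2 had a log2 ratio of 0.51, short of 1.5-fold. The other leucine tRNA, mt-Tl1, which follows mt-Rnr2, had 287 and 280 (ratio 0.985, 0.833 to 1.17). mt-Tr, for arginine, had 148 and 213, and mt-Tg, for glycine, 110 and 144, with ratios of 1.45 and 1.32. mt-Th, for histidine, had 110 and 118, and mt-Ts2, a serine tRNA, 127 and 105, with intervals that include 1. The 9 tRNAs under the filter are mt-Tf, mt-Tv, mt-Ti (15 and 12 counts), mt-Tq (9 and 4), mt-Tm (9 and 13), mt-Ta (2 and 14), mt-Ts1 (2 and 17), mt-Td (1 and 8) and mt-Tt (6 and 34). Of these, mt-Ta, mt-Ts1, mt-Td and mt-Tt had ratios with intervals above 1, from 1.62 to 64.1 for mt-Ta and from 2.38 to 16.7 for mt-Tt. Counts this low fix no size.

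By strand, the plus strand carries 28 genes and the minus strand 9. The kit named in the labels does not mark strand, so counts on the minus strand genes include any reads from the opposite precursor that were assigned to them. Of the 22 plus strand genes that passed the filter 9 were higher and none lower, beside 22.9% of all genes each way, with a median log2 ratio of 0.51. Of the 6 minus strand genes that passed 2 were higher and 2 lower, with a median of -0.11, which turned to 0.034 with no filter or with a filter of 10 CPM and to 0.016 with totals that leave out mitochondrial genes and copies. Summed counts of minus strand genes were 55068 (control) and 55185 (knockout), a ratio of 1.01 (1.00 to 1.02), against 1.45 (1.45 to 1.45) for the plus strand. Most of the minus strand sum is mt-Nd6.

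Most nuclear mRNAs for the same complexes lay within 1.5-fold. Of 75 nuclear subunits of complexes I, III, IV and V, all of which passed the filter, 2 were higher and 15 lower, leaving 58 in between, and the log2 ratios had a median of -0.12 (0.011 with totals that leave out mitochondrial genes and copies), beside backgrounds of 22.9% higher and 22.9% lower. The lower share is 15 of 75, near the background. The higher members, named after their values were seen, were Ndufa2 (5984 and 8975 counts, ratio 1.51) and Ndufb7 (5457 and 8109, ratio 1.501). Complex I had a nuclear median of -0.12 over 36 genes and a mitochondrial median of 0.03 over 7. Complex III had -0.22 over 9 nuclear genes and 0.09 for mt-Cytb. Complex IV had -0.04 over 14 nuclear genes and 0.64 over 3 mitochondrial ones, and ATP synthase -0.12 over 16 and 0.51 over 2. With those other totals the nuclear medians were 0.0046 for complex I, -0.091 for complex III, 0.092 for complex IV and 0.012 for ATP synthase. These counts and medians rest on the same 2 libraries, and the difference between the genomes was not tested.

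**Figure D5:**
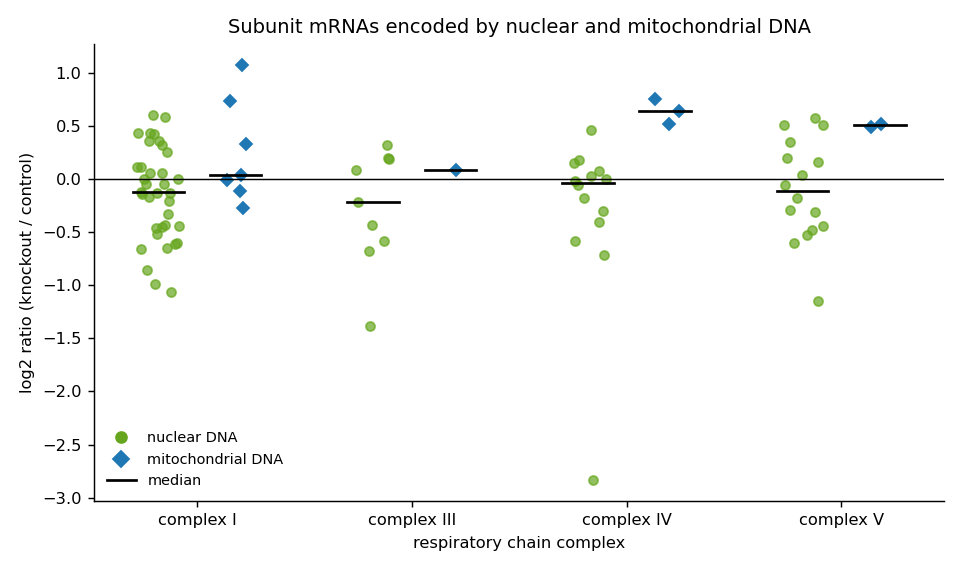
Log2 ratio (y axis, knockout over control, pseudocount 0.5 CPM) of subunit mRNAs of complexes I, III, IV and V (x axis), with nuclear genes as green circles, mitochondrial genes as blue diamonds and a bar at each median. In complex IV the mitochondrial median is 0.64 and the nuclear one -0.04, while in complex I the ranges overlap, from -1.07 to 0.60 for nuclear and from -0.27 to 1.08 for mitochondrial genes.

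Among the nuclear subunits, Uqcrc2, a core protein of complex III, had 13662 control and 5183 knockout counts, 2.61-fold lower. Uqcrfs1, the iron-sulfur protein, was 1.60-fold lower and Uqcrc1 1.502-fold, and Uqcrb had a ratio of 0.741. In complex I Ndufa10 was 2.10-fold lower (11980 and 5661 counts), Ndufa9 1.98-fold, Ndufs1 1.81-fold and Ndufs8 1.58-fold. In complex IV Cox6a2, the isoform of heart and skeletal muscle that brown fat also expresses, was 7.81-fold lower (797 and 101 counts), beside muscle markers at 0.398% and 0.0404% of counts. Cox6a1 was 1.64-fold and Cox8a 1.502-fold lower, and Cox7a1 had a ratio of 1.38. In ATP synthase Atp5g1 and Atp5g2, which encode the same ring subunit, were 2.26-fold and 1.52-fold lower, and Atp5e had a ratio of 1.49 and Atp5c1 of 0.691. Pseudogene copies of these nuclear genes were not examined.

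Nuclear genes also supply the machinery that makes and processes mitochondrial RNA. Of 17 genes of mitochondrial transcription and DNA replication 2 were higher and 7 lower, against 22.9% of all genes each way, with a median log2 ratio of -0.24. Tfb2m, the transcription factor that opens the promoter for the polymerase, had 1325 and 570 counts, 2.30-fold lower (interval of the ratio 0.393 to 0.480). Mgme1, a nuclease of mitochondrial DNA replication, was 2.26-fold lower and Mterf4, which takes part in ribosome assembly, 2.06-fold lower. Polg, the DNA polymerase, had 1078 and 1783 counts, a ratio of 1.67 (1.55 to 1.80), and Mterf1b, with 28 and 67, named after its value was seen, was the other higher gene. Named after their values were seen, the polymerase gene Polrmt had 1283 and 1511 counts (ratio 1.19), Tfam, which packages the DNA and binds the promoters, 669 and 561 (0.847), and the elongation factor Tefm 297 and 119 (0.405).

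Of 31 measured genes of RNA processing and stability 2 were higher (Tbrg4 and Mrm1, named after their values were seen), 13 lower and 16 in between, with a median of -0.26, against 22.9% of all genes higher and 22.9% lower. Lrpprc, which binds and stabilises mitochondrial mRNAs, had 1987 control and 885 knockout counts, 2.22-fold lower. Its partner Slirp, named after its value was seen, had 67 and 38, a ratio of 0.573. Rexo2, an exonuclease of short RNAs, was 2.45-fold lower, Trub2, a pseudouridine synthase, 2.34-fold and Hsd17b10, a subunit of the RNase P that cuts tRNA 5′ ends, 2.07-fold. In GENCODE release M21, Mgme1, Mterf4, Polg, Slirp and Trub2 overlap the span of a protein-coding gene on the other strand. So do Cox6a2, Ndufa2, Ndufs1, Uqcrb and Uqcrc2 among the subunits, and the counts of all these genes are uncertain in an unstranded library. Cox6a2 lies whole within the span of Itgad, whereas Ndufs1 shares 9 bases with Eef1b2. Over both lists, with Tfb1m in each, 19 of 47 genes were lower and 4 higher, beside the same background of 22.9% each way. Further genes in these counts have such an overlap, both lower and in between, and share the uncertainty. The lower ones, named after their values were seen, are Mrm2, Mrm3, Mterf2, Polg2, Tfb1m and Trnt1. Of the 13 mitochondrial mRNAs 4 were higher and none lower, beside 22.9% of all genes each way. Any relation of Lrpprc to their levels was not tested.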

How the data were processed

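The authors deposited raw read counts per Ensembl gene for 2 libraries. Per the submitters' processing notes, Trimmomatic, HISAT2, featureCounts and the mm10 build were used; for versions, annotation release and multi-mapping reads the settings were not given in the sources used here. Gene length in bases, per the file headers, was used for levels per kilobase, and coordinates are those of the table.

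Counts were scaled with TMM factors (edgeR 4.0.16, R 4.3.3) over all rows. Folds are ratios of scaled counts with a 95% exact binomial (Clopper-Pearson) interval; PCR copies are not independent molecules, so intervals and floors of 3 counts cover counting error only. For log2 ratios 0.5 was added to each CPM, so changes of low genes come out too small. GENCODE release M21 transcripts (GRCm38) were aligned with blastn 2.17.0. Cell type marker lists are given as counts. Named nuclear genes are the 4 of each other list with the largest absolute log2 ratio among those averaging 10 CPM or more, and all others are marked as named after their values were seen. Members and lists were chosen with earlier results of these data known. Alternatives were scaling by DESeq2 1.42.0 or by totals (all counts, or all but mitochondrial genes and copies), other thresholds, filters and pseudocounts, and adding copies to their genes. Python 3.11.15, pandas 2.3.3, scipy 1.17.1 and matplotlib 3.10.9 were used.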

Additional observations from a re-analysis of the deposited data

How the results depend on the processing

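Leaving out a library was not possible. Depth is not the limit for mRNAs and rRNAs, whereas 9 of 22 tRNAs had too few counts. No paired analysis was possible because 1 pooled library stood for a group. DESeq2 size factors changed no call count of the mitochondrial genes. They left 13 nuclear subunits lower in place of 15, with complexes III and IV at 2 lower each in place of 3. Scaling to total counts moved the median log2 ratio of all genes to -0.12 and those of the members to 0.36 (mRNA), 0.72 (rRNA), 0.25 (tRNA), 0.38 (plus strand) and -0.24 (minus strand), with 8 members higher and 2 lower. Totals without mitochondrial genes and copies moved the median of all genes to 0.12 and those of the members to 0.62, 0.98, 0.57, 0.64 and 0.016, the last a change of sign, with 16 higher and 2 lower. The minus strand median was also 0.034 with no filter and with a filter of 10 CPM, which left 1 member lower. At 2-fold 3 members were higher and 1 lower, and at 3-fold 1 was higher and 0 lower. Nuclear subunits gave 0 higher and 19 lower with total counts, and 6 higher and 7 lower with totals without mitochondrial genes and copies. At 2-fold they gave 0 and 4 and at 3-fold 0 and 1. Genes of transcription and RNA handling gave 2 higher and 20 lower with total counts, and 5 and 15 with totals without mitochondrial genes and copies. At 2-fold these gave 1 higher and 9 lower and at 3-fold 0 and 0. With nuclear copies, mitochondrial sequence took 32.1% of control and 43.3% of knockout counts, and with copies left out of the total, an alternative added after the data were seen, 23.6% and 32.8%. Scaled to mitochondrial mRNA, 27 of 35 single-gene ratios left their counting interval, since that scaling divides every ratio by the common excess.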
